A study of Mus musculus with 2 samples.

Results

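The DNA replication machinery was taken as 51 genes named by symbol: the subunits of the origin recognition, MCM, GINS, clamp loader, replication protein A and replicative polymerase complexes, with their licensing, kinase, clamp, ligase and nucleotide-supply partners. All 51 were measured, out of 24675 genes with a symbol. Their expression was compared between ventral tissue, cut from under the dorsal aorta, and dorsal tissue, cut from over the vessel, up to the notochord. Both pieces came from the same C57Bl/6 mouse embryos at embryonic day 10.5, untreated and of no stated mutant genotype, and how many embryos were pooled is not stated. Each tissue was represented by 1 Affymetrix Mouse Gene 2.0 ST array, both called biological replicate 4, so the differences below carry neither error nor p-value and are described by size alone.

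Replication starts when the origin recognition complex, with Cdc6 and Cdt1, loads the ring-shaped MCM helicase onto DNA, a step called licensing. In S phase the Cdc7-Dbf4 kinase, Cdc45 and GINS turn the loaded ring into an active helicase, and polymerase alpha-primase, delta and epsilon copy the opened strands with the clamp PCNA. Many of these genes are transcribed as cells pass from G1 into S phase, under the control of E2F transcription factors, so they are widely used as marks of dividing cells. In an embryo of this age most tissues around the aorta still divide.

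The deposited values are log2 expression levels. As a mark of background the 95th percentile of 1365 receptor genes of the olfactory and vomeronasal families was taken over both arrays, at 3.92, since neither tissue is expected to express them; their 99th percentile was 5.48. A fold is called a lower bound ("at least") where the dimmer array was at or under 3.92, and is then the brighter level over that mark. The marker lists followed the labels in part: 6 of 8 coelomic epithelium genes were above the mark in ventral and 0 of 8 in dorsal tissue, and of sclerotome genes 4 of 8 in ventral and 6 of 8 in dorsal tissue, with the dorsal level the higher for each of those 6, though by only 0.14 for Sox9. Of 8 blood progenitor genes, Runx1 and Kit among them, 0 were above the mark on either array. Endothelial genes were above the mark for 5 of 10 in ventral and 3 of 10 in dorsal tissue. In such bulk tissue, fewer cells of a type and less RNA per cell cannot be told apart.

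Replication genes were detected in both tissues, and a minority differed between them, mostly with the higher level under the aorta. The ventral level was also the higher for 68.9% of 2-fold differences among all genes whose mean of both arrays reached the background mark. In ventral tissue 33 of the 51 genes were above the background mark, and in dorsal tissue 34; over all genes these shares were 23.8% and 24.2%. Both arrays were above the mark for 30 genes and neither for 14. The greatest ventral excess was at least 9.37-fold, for Gins4, a subunit of the GINS complex. For Prim1, the catalytic primase subunit, it was 5.99-fold, and for Dbf4, the activating subunit of the Cdc7 kinase, 5.71-fold. At the other end Tk1, the thymidine kinase of nucleotide salvage, had a dorsal excess of at least 1.98-fold. Pcna, the sliding clamp, was at 11.47 in ventral and 11.47 in dorsal tissue.

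**Figure D1:**
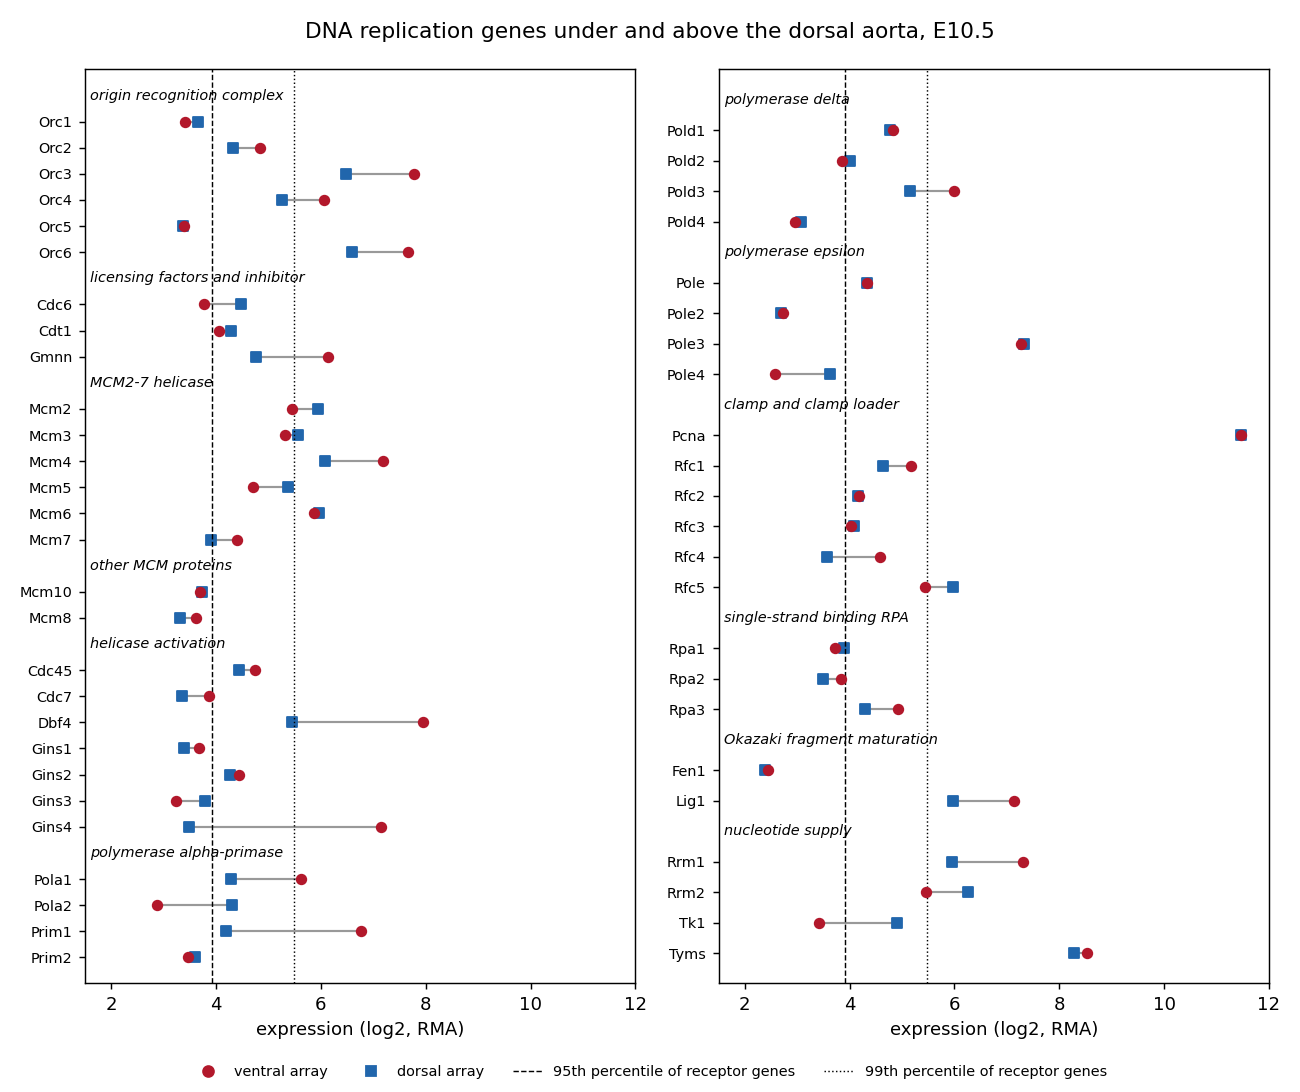
Expression of the 51 replication genes on the log2 scale (horizontal axis), grouped by role, with the ventral array as circles and the dorsal array as squares; a grey line joins the 2 values of a gene, and the dashed and dotted lines mark the 95th and 99th percentiles of receptor genes, 3.92 and 5.48. The widest gaps, at Gins4, Prim1 and Dbf4, have the circle on the right, while Pcna lies at 11.47 on both arrays.

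By measured values, 11 of the 51 genes had a ventral excess of 2-fold or more, 21.6% against 5.36% of all genes with a symbol. Another 3 genes, or 5.88%, had a dorsal excess of that size, against 2.79% of all genes. The remaining 37 were within 2-fold. Most genes of the array lie near background, where differences are small, so genes of like level are the closer comparison. Among the 36 replication genes whose mean of both arrays reached the mark, 11 had the 2-fold ventral excess, 30.6% against 17.8% of the 5974 such genes, and 1 the dorsal excess, 2.78% against 8.02%. Among the 15 whose mean reached the 99th percentile of receptor genes, 6 had the ventral excess and 0 the dorsal one, where the shares over all such genes were 21.8% and 10.9%. A gene can reach such a mean through its brighter array alone, so these last counts are a description and carry no support.

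The median difference, ventral minus dorsal, was 0.046 on the log2 scale over the 51 genes and -0.11 over all genes. Over the genes whose mean reached the mark it was 0.27 for the 36 replication genes and 0.05 for all 5974. The 51 differences ran from -1.49 to 3.66, with 31 genes above 0 and 20 below. Over all genes 9029 were above 0 and 15610 below, and over the 5974 whose mean reached the mark 3156 and 2813. Of the 37 replication genes above the mark on 1 or both arrays, 24 were above 0 and 13 below. Some of the 37 passed that filter through their brighter array alone, so this last count is a description and carries no support. The 11 genes higher in ventral tissue were Gins4, Prim1, Dbf4, Gmnn, Rrm1, Pola1, Orc3, Lig1, Mcm4, Orc6 and Rfc4, and for 9 of them both arrays were above the mark. The 3 higher in dorsal tissue were Tk1, Pola2 and Pole4. For none of these 3 was the ventral value above the mark, and for Pole4 the dorsal value was under it too. Just inside the threshold of 1 lay Rfc4, with a difference of 1.004, and Orc6, with 1.08. Just outside it lay Pold3, with 0.82, and Orc4, with 0.79.

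The count of 11 depended on how the arrays were scaled. After quantile normalization of the 2 columns it was 6, with Orc3, Lig1, Mcm4, Orc6 and Rfc4 under 2-fold. Among the 36 replication genes whose mean then reached the mark these 6 were 16.7%, near the 14.0% of all such genes. The dorsal count was 3, with Rrm2 past 2-fold and Pole4 under it; 2 of the 3 had a mean reaching the mark, 5.56% against 11.1% of all such genes. Over all genes whose mean reached the mark, the ventral share of the 2-fold calls was 68.9% as deposited and 55.8% after this step.

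**Figure D2:**
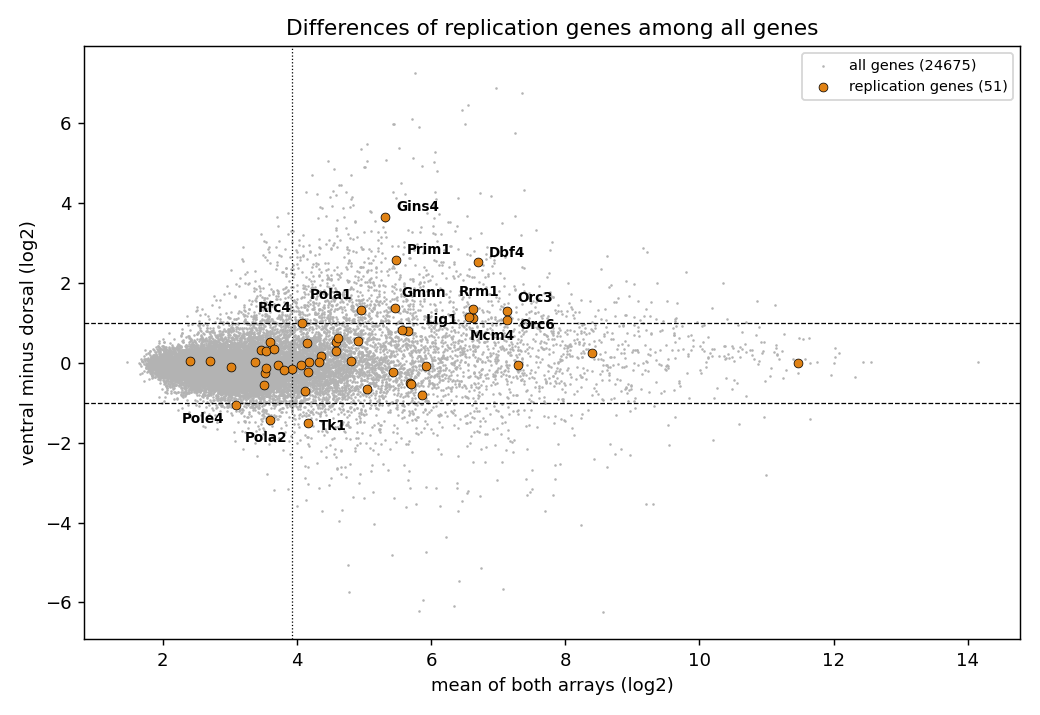
Ventral minus dorsal difference (vertical axis, log2) against the mean of both arrays (horizontal axis, log2) for 24675 genes in grey and the 51 replication genes in orange; dashed lines mark 2-fold and the dotted line the background mark of 3.92. The 11 named genes above the upper line and the 3 below the lower line are those at least 2-fold apart as deposited, and the grey cloud of other genes reaches beyond them in both directions.

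Promoter sequences were read from RefSeq (build GRCm38.p6) for 43 of the 51 genes. No promoter was available for Gins4, Gmnn, Mcm4, Gins1, Gins2, Pole, Prim2 and Rfc2. Gins4, Gmnn and Mcm4, each with a 2-fold ventral excess, were thus not searched. The sequences cover 250 bases before to 50 bases after each transcription start. The letters searched for E2F, on both strands, were TTTCGCGC, TTTGGCGC, TTTCCCGC and TTTGCCGC; matches may overlap one another. At least 1 of these was present for 17 of the 43 genes, 39.5% against 2.60% of the 27025 genes of the table. With the first 2 letter strings alone the count was 11, or 25.6% against 0.929%, and with the bases before the start alone it was 10, or 23.3% against 2.16%. The 17 were Orc1, Orc3, Cdc6, Cdt1, Mcm3, Mcm5, Mcm6, Mcm7, Mcm8, Gins3, Pola1, Pold1, Pold3, Pole2, Pole4, Rfc3 and Lig1. The CCAAT box, CCAAT on either strand, was present for 25 of 43 genes, 58.1% against 41.1%. These matches describe letters in a window and show no binding.

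Genes with the E2F letters lay on both sides of the tissue comparison. Their 17 differences had a median of -0.05 and ran from -1.06 to 1.32, with a measured 2-fold ventral excess for 3 genes and a dorsal one for Pole4, at background on both arrays. The 26 genes without a match had a median of 0.15 and ran from -1.49 to 2.58, with 5 and 2 such genes. Over all genes with a symbol, 5.36% had a 2-fold ventral and 2.79% a dorsal excess. Among all genes whose mean reached the mark these shares were 17.8% and 8.02%. Whether genes with and without the letters differ was not tested. The 160 bases before the start are shown for the 4 genes with the greatest ventral and the 4 with the greatest dorsal excess among those in the table whose mean reached the mark. Capitals mark E2F letters or the CCAAT box in either orientation, and positions are counted back from -1, the base just before the start. The first 4 are the genes with the ventral excess.
Prim1, chr10:128015055-128015214, plus strand: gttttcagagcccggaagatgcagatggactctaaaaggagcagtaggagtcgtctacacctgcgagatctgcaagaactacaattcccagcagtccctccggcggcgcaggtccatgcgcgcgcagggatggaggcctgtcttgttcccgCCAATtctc
Dbf4, chr5:8422717-8422876, minus strand: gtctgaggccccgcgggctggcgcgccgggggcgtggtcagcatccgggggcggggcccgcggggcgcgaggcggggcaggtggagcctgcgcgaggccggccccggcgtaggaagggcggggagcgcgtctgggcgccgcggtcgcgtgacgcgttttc
Rrm1, chr7:102441535-102441694, plus strand: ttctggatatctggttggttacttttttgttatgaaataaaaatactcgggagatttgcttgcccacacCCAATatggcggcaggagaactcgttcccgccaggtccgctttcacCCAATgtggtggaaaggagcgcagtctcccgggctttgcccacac
Pola1, chrX:93632156-93632315, minus strand: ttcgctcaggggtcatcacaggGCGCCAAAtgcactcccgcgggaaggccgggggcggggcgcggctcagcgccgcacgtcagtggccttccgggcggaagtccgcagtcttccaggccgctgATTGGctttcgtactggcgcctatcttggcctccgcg
The next 4 had the higher level in dorsal tissue, and only for Tk1 were the measured values 2-fold apart, with its ventral value at background and a bound of 1.98-fold.
Tk1, chr11:117826015-117826174, minus strand: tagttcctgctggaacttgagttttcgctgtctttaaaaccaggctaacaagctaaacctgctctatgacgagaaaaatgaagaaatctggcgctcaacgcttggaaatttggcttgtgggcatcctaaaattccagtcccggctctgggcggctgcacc
Rrm2, chr12:24708094-24708253, plus strand: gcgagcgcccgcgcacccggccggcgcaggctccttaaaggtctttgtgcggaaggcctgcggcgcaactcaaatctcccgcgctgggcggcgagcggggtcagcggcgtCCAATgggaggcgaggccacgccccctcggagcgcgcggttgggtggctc
Cdc6, chr11:98907991-98908150, plus strand: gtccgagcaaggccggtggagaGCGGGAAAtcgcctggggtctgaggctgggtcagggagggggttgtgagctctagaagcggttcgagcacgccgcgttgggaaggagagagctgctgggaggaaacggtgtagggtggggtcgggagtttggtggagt
Mcm5, chr8:75109349-75109508, plus strand: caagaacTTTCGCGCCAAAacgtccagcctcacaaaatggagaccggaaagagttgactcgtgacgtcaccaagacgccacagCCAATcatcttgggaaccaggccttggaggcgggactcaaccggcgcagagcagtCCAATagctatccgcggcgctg
In these windows Prim1 and Rrm1 hold CCAAT alone, at -9 to -5 for Prim1 and at -91 to -87 and -45 to -41 for Rrm1. Dbf4 and Tk1 hold neither. Pola1 holds TTTGGCGC on the minus strand of the gene at -138 to -131 and an inverted CCAAT box at -37 to -33. Cdc6 holds TTTCCCGC on the same strand at -138 to -131. Rrm2 holds CCAAT at -50 to -46. Mcm5 holds overlapping TTTCGCGC and TTTGGCGC matches at -153 to -146 and -149 to -142, on opposite strands, and CCAAT boxes at -77 to -73 and -22 to -18.

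The origin recognition complex, which marks the sites where replication can start, had 4 of 6 subunits above the mark, all 4 with the higher level in ventral tissue. Orc3, a core subunit, had a level of 7.77 in ventral tissue, against 6.48 in dorsal tissue, or 2.46-fold. Orc6, the smallest subunit, was at 7.67 in ventral and 6.58 in dorsal tissue, or 2.12-fold. Both genes were above the 99th percentile of receptor genes on both arrays. Orc4 had a ventral excess of 1.73-fold, at 6.05 against 5.26, and Orc2 1.44-fold, at 4.84 against 4.32. The other subunits were at background on both arrays: Orc1, which carries the essential ATPase, at 3.40 in ventral and 3.64 in dorsal tissue, and Orc5 at 3.38 and 3.36. The median difference of the 6 was 0.66.

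The licensing factors and their inhibitor did not go the same way. Gmnn encodes geminin, which binds Cdt1 and prevents a second licensing of the same DNA. Its level of 6.14 in ventral tissue, against 4.77 in dorsal tissue, was 2.60-fold higher in ventral tissue. Cdt1 itself was at 4.06 in ventral and 4.28 in dorsal tissue, within 2-fold. Cdc6, the ATPase that loads the helicase with Cdt1, was at 3.77 in ventral tissue, at background, against 4.48 in dorsal tissue, at least 1.48-fold higher in dorsal tissue.

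The MCM2-7 proteins form the helicase ring with 1 copy of each subunit, and their transcripts differed in direction. Mcm4 was at 7.19 in ventral and 6.07 in dorsal tissue, 2.17-fold higher in ventral tissue, and was the only subunit past 2-fold. Mcm2 was at 5.44 in ventral and 5.94 in dorsal tissue, Mcm3 at 5.31 and 5.55, Mcm5 at 4.71 and 5.37, and Mcm6 at 5.87 and 5.96, all 4 higher in dorsal tissue but within 2-fold. Mcm7 was at 4.41 in ventral tissue and at background, 3.91, in dorsal tissue. The median of the 6 differences was -0.16. Mcm10, which helps the helicase become active, and Mcm8, a relative that works in recombination repair, were at background on both arrays, between 3.31 and 3.74.

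Among the factors that turn the loaded ring into a working helicase, Gins4 and Dbf4 stood far from the other 5, and the group's median difference was 0.30. Gins4 was at 7.15 in ventral tissue and at background, 3.49, in dorsal tissue. The other GINS subunits, which form 1 complex with it, showed no such gap. Gins2 was at 4.44 in ventral and 4.27 in dorsal tissue, Gins1 at 3.68 and 3.39, and Gins3 at 3.23 and 3.78, the last 2 genes at background on both arrays. Dbf4 was at 7.95 in ventral and 5.44 in dorsal tissue, while Cdc7, the kinase it activates, was at background at 3.86 and 3.34. Cdc45, which completes the active helicase, was within 2-fold at 4.74 in ventral and 4.44 in dorsal tissue.

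**Figure D3:**
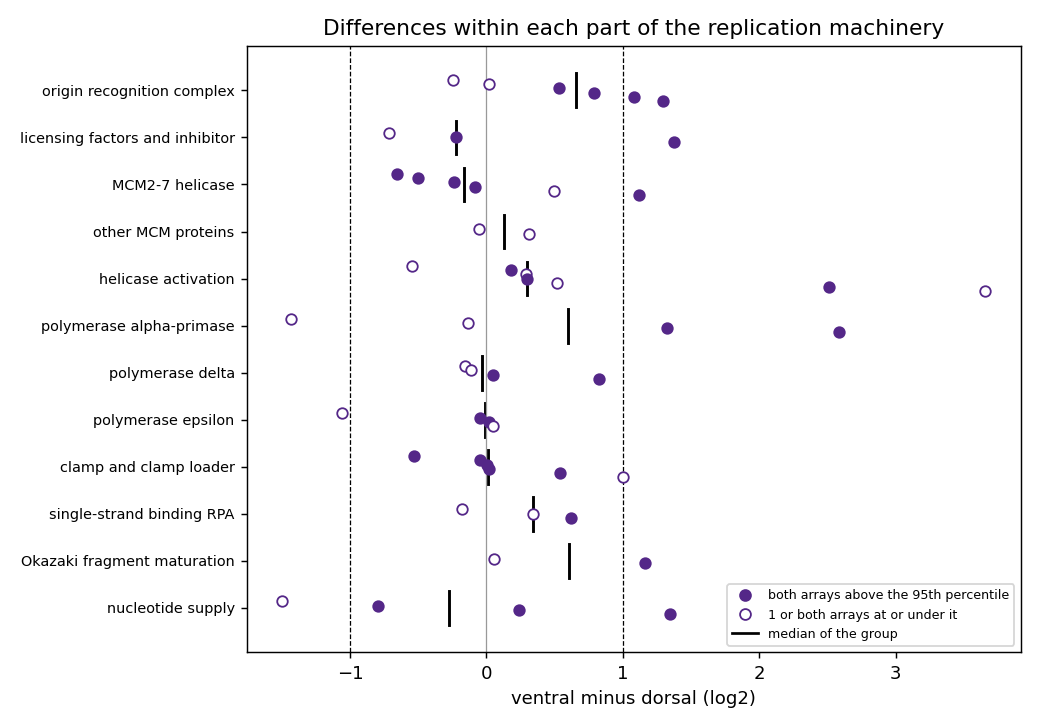
Ventral minus dorsal difference (horizontal axis, log2) of each replication gene by role, with filled circles where both arrays were above the background mark of 3.92, open circles where 1 or both were not, black bars for the group medians and dashed lines at 2-fold. Single subunits, such as Gins4 at 3.66 and Prim1 at 2.58, lie far from the others of their complex, and the group medians lie between -0.28 and 0.66.

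Polymerase alpha-primase makes the RNA-DNA primer of every new strand and has 4 subunits. Both catalytic subunits were higher in ventral tissue. Prim1 was at 6.77 in ventral and 4.19 in dorsal tissue, and Pola1, the polymerase, was at 5.61 and 4.29, a 2.50-fold difference. Pola2, the accessory subunit, went the other way, at 2.88 in ventral tissue, at background, against 4.31 in dorsal tissue, at least 1.31-fold. Prim2, the regulatory primase subunit, was at background at 3.47 in ventral and 3.60 in dorsal tissue.

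The polymerases that extend the primers differed little. Of the polymerase delta subunits, which copy the lagging strand, Pold1, the catalytic one, was at 4.82 in ventral and 4.78 in dorsal tissue, and Pold3 had a ventral excess of 1.77-fold, at 5.98 against 5.16. Pold2 was near the mark at 3.85 and 4.00 and Pold4 at background at 2.96 and 3.07. Of the polymerase epsilon subunits, which copy the leading strand, the catalytic Pole was at 4.34 in ventral and 4.32 in dorsal tissue. Pole3, a histone-fold subunit, was at 7.28 and 7.32. Its partner Pole4 was at background on both arrays, at 2.57 in ventral and 3.63 in dorsal tissue, so its measured difference of -1.06 is not given as a fold. Pole2 was at background as well, at 2.73 and 2.69.

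The clamp loader opens the PCNA ring and closes it on DNA. Of its 5 subunits, Rfc4 was at 4.57 in ventral tissue and at background, 3.57, in dorsal tissue, at least 1.57-fold. Rfc1, the large subunit, had a ventral excess of 1.45-fold, at 5.18 against 4.64, and Rfc5 1.44-fold higher in dorsal tissue, at 5.44 in ventral against 5.97 in dorsal tissue. Rfc2 was at 4.19 in ventral and 4.16 in dorsal tissue, and Rfc3 at 4.03 and 4.08. Replication protein A covers single-stranded DNA; its subunit Rpa3 had a ventral excess of 1.54-fold, at 4.92 against 4.30, and Rpa1 and Rpa2 were at background, between 3.49 and 3.89. Lig1, the ligase that joins Okazaki fragments, had a ventral excess of 2.24-fold, at 7.14 against 5.98. Fen1, the nuclease that trims them, was at 2.44 in ventral and 2.38 in dorsal tissue, deep in the range of receptor genes on both arrays.

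Genes of nucleotide supply were split between the tissues. Rrm1, the large subunit of ribonucleotide reductase, was 2.55-fold higher under the aorta, at 7.30 in ventral and 5.95 in dorsal tissue. Rrm2, the small subunit of the same enzyme, which is made mainly in S phase, was at 5.46 in ventral and 6.26 in dorsal tissue, 1.73-fold higher in dorsal tissue. Tk1 was at background, 3.41, in ventral tissue and at 4.91 in dorsal tissue. Tyms, thymidylate synthase, was at 8.52 in ventral and 8.28 in dorsal tissue, 1.18-fold. A processed copy of it, Tyms-ps, named here after its values were seen, was listed at 6.42 in ventral and 5.53 in dorsal tissue, and probes of the 2 may share signal.

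Partner subunits were set against each other, in pairs chosen after their values were seen. The ventral over dorsal fold of Rrm1 was 4.41 times that of Rrm2, and all 4 values of this pair were above the background mark. The fold of Mcm4 was 3.43 times that of Mcm5 and 2.30 times that of Mcm6, again with every value above the background mark. The fold of Gmnn was 3.03 times that of Cdt1. Such ratios within the arrays do not depend on a constant shift between them. They show unequal differences, and they have no replicate error either.

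Other genes of S phase and cell division were examined in 5 lists that leave out the 51. Of 29 measured genes of the fork, origin firing and chromatin assembly, 3 had a 2-fold ventral excess and 1 a dorsal excess, with a median difference of 0.26. All 4 were among the 16 whose mean reached the mark, where they make 18.8% and 6.25%, near the 17.8% and 8.02% of all such genes. Tipin, a fork protection factor, had a ventral excess of 6.06-fold, at 8.12 against 5.52. Asf1a, a histone chaperone, was 2.09-fold higher there at 6.88 against 5.82, and Top1, the topoisomerase that relieves twist ahead of the fork, 2.01-fold at 9.66 against 8.65. Rnaseh2b, a subunit of the nuclease that removes RNA from DNA, was 2.20-fold higher in dorsal tissue, at 4.90 in ventral and 6.04 in dorsal tissue. Timeless, the partner of Tipin, was at background at 3.28 in ventral and 2.87 in dorsal tissue. After quantile normalization the ventral count of this list was 2 and the dorsal count 1. Of the 16 genes whose mean then reached the mark, 1 was past 2-fold in each direction. That is 6.25%, against 14.0% ventral and 11.1% dorsal over all such genes. At most 1 of Tipin, Asf1a and Top1 thus stayed past 2-fold.

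Of 12 measured genes of nucleotide synthesis, a ventral excess of 2-fold was found for 3 and a dorsal one for 1, with a median of 0.49. All 4 were among the 7 whose mean reached the mark, where they make 42.9% and 14.3%, against 17.8% and 8.02% of all such genes. Ctps, a CTP synthase, had a ventral excess of at least 2.79-fold at 5.40 against 3.61, Dtymk, thymidylate kinase, 2.37-fold at 6.31 against 5.06, and Dctd, the dCMP deaminase, 2.06-fold at 5.37 against 4.33. Dut, the dUTPase, was 2.26-fold higher in dorsal tissue, at 6.38 in ventral and 7.56 in dorsal tissue. After quantile normalization the ventral count of this list was 1. That was 14.3% of the 7 genes whose mean then reached the mark, near the 14.0% of all such genes.

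Of 24 genes of G1/S control, by measured values, 1 was past 2-fold with the ventral level higher and 2 with the dorsal level higher. The median was 0.16. Of the 15 whose mean reached the mark, 1 was past 2-fold in each direction. That is 6.67%, against 17.8% ventral and 8.02% dorsal over all such genes. E2f3, an E2F factor that activates S-phase genes, had a ventral excess of 4.26-fold, at 6.78 against 4.69. Ccnd2, cyclin D2, was 2.47-fold higher in dorsal tissue, at 8.10 in ventral and 9.41 in dorsal tissue, and Cdk6, a kinase that cyclin D activates, was at 2.45 in ventral tissue, at background, and 4.32 in dorsal tissue, at least 1.32-fold higher there. Tfdp1, the dimer partner of E2F factors, was at 10.11 in ventral and 9.20 in dorsal tissue, Skp2, a ubiquitin ligase subunit, at 5.64 and 4.80, and E2f1 at 4.12 and 4.21, all within 2-fold.

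Of 7 CDK inhibitors, which hold cells out of S phase, none was at least 2-fold apart as deposited, and the median difference was -0.45. Over all genes 5.36% had a 2-fold ventral and 2.79% a dorsal excess. On both arrays 3 of the 7 were at background, and for only 2 did the mean reach the mark. After quantile normalization Cdkn1c was past 2-fold, at -1.08. It was 1 of 2 inhibitors whose mean then reached the mark, where 11.1% of all such genes had a 2-fold dorsal excess. Cdkn1c was at 4.80 in ventral and 5.64 in dorsal tissue and Cdkn2b at 4.21 and 4.67. Of 15 measured genes of mitosis and proliferation, all above the mark on both arrays, 1 was at least 2-fold higher in each tissue. That is 6.67% each way, against 17.8% ventral and 8.02% dorsal over all genes whose mean reached the mark. The median difference of the list was 0.18. Nusap1, a spindle protein, was 5.79-fold higher in dorsal tissue, at 6.66 in ventral and 9.19 in dorsal tissue. Bub1b, a spindle checkpoint kinase, had a ventral excess of 2.43-fold, at 6.00 against 4.72. Cdk1, the mitotic kinase, at 8.36 in ventral and 7.47 in dorsal tissue, Cenpf, a kinetochore protein, at 6.78 and 6.01, and Mki67, which encodes the proliferation antigen Ki-67, at 8.07 and 8.43, were within 2-fold.

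**Figure D4:**
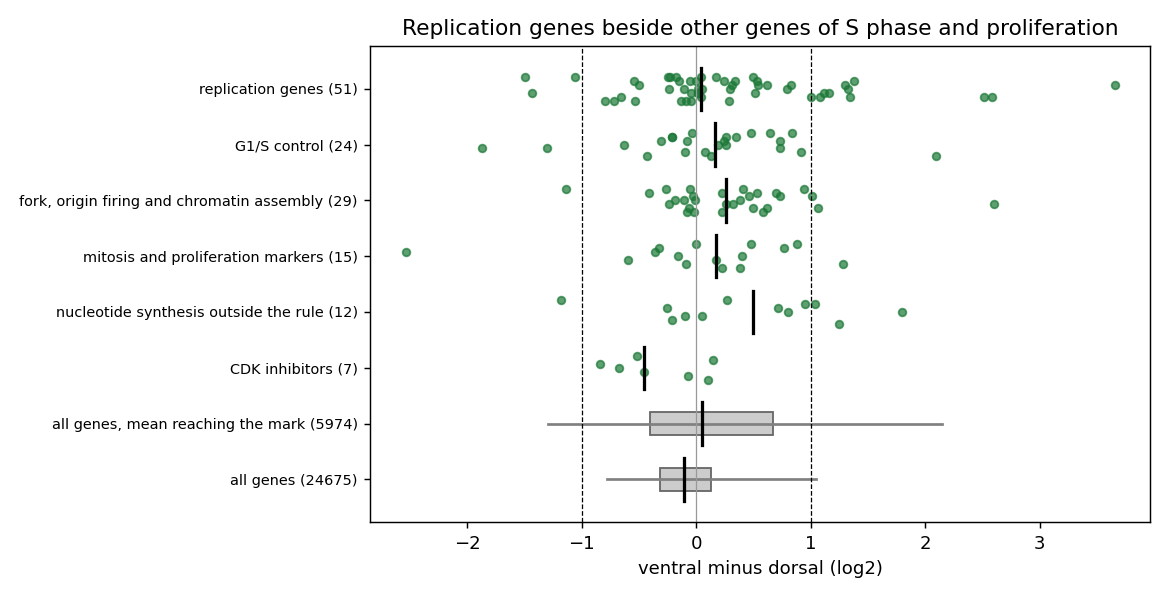
Ventral minus dorsal differences (horizontal axis, log2) of the 51 replication genes and of 5 lists of related genes, 1 point a gene with the number of genes in brackets, black bars for medians and dashed lines at 2-fold; for all genes the box spans the 25th to 75th percentile and the line the 5th to 95th. The medians lie between -0.45 for the CDK inhibitors and 0.49 for nucleotide synthesis, and that of the replication genes is 0.046.

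Markers of some cell types, though not of all, differed between the pieces alongside the replication genes. The summed level of the 8 coelomic epithelium genes, on the linear scale, was 297 in ventral and 87.1 in dorsal tissue. That of 8 smooth muscle and pericyte genes, 5 above the mark in ventral and 2 in dorsal tissue, was 320 and 111. Cnn1 alone made 112 and 7.22 of the latter, and without it the sums were 208 in ventral and 103 in dorsal tissue. The sum of 10 endothelial genes was 253 in ventral and 125 in dorsal tissue. Of these, Cdh5 made 99.9 and 18.7, and without it the sums were 153 and 106. In this list 5 genes were higher in each tissue, with a median difference of 0.095. Of the 6 above the mark on any array, 5 were higher in ventral and 1 in dorsal tissue. The sum of 8 sclerotome genes was 159 in ventral and 304 in dorsal tissue. Of 8 measured neuronal and neural crest genes, 3 were above the mark in ventral and 2 in dorsal tissue, with sums of 381 and 166, but this sum rests on the neurofilament gene Nefm, at 291 and 43.7; without it the sums were 89.98 in ventral and 122 in dorsal tissue. The median difference of this list was -0.22, and the tubulin gene Tubb3 had a dorsal excess of 2.21-fold. Of 9 measured erythroid genes, 6 were above the mark in ventral and 5 in dorsal tissue, with sums of 10700 and 11469.8. The part of these cell types in the differences of the replication genes was not tested.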

How the data were processed

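The data are 2 Mouse Gene 2.0 ST arrays, ventral and dorsal. Per the labels' protocols, tissue was laser-microdissected from frozen sections of 20 µm. Between 200 and 1000 pg of RNA per sample went into amplification by a single-primer isothermal method, which can lose transcripts at random at such amounts. The deposited values are log2 expression levels made by the authors; RMA and Affymetrix Expression Console are named in the submitters' processing notes. Which arrays were normalized as one set, and with which versions and probe annotation, is not stated there.

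Of 25429 features, 24675 had 1 symbol in the platform annotation, and the 754 without exactly 1 symbol were left out. All 51 replication genes matched by gene number in the RefSeq table of GRCm38.p6, with symbols unchanged, and 13 overlap another protein-coding gene there. With 1 array per tissue no test was made. Members, lists and thresholds were chosen with earlier results of these data known. Every replication gene was named, with up to 4 genes of each related list, those furthest apart among genes whose mean reached the mark; Timeless, E2f1, Cdk6, Mki67, Tyms-ps and the subunit pairs were added after their values were seen. Alternatives were quantile normalization, centring, a loess on level (span 0.3), other fold thresholds, marks and filters. The steps were run on simulated data with known changes, which checks the code and not the reliability of the 2-fold differences. Python 3.11.15 was used with pandas 2.3.3 and numpy 2.4.6, statsmodels 0.14.6 for the loess, scipy 1.17.1, and matplotlib 3.10.9 for drawing. Precision is limited by the number of arrays, 2.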

Additional observations from a re-analysis of the deposited data

How the results depend on the processing

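Quantile normalization of the 2 columns left 6 genes with a 2-fold ventral excess and shifted the median of all genes whose mean reached the mark to -0.11, against 0.05 as deposited. Gins4, Prim1, Dbf4, Gmnn, Rrm1 and Pola1 stayed past 2-fold under quantile normalization, centring and loess. Under the loess Orc6 and Mcm4 were under 2-fold, at 0.89 and 0.95, and Pole4 at -0.91; under centring Rfc4 was, at 0.95. The ventral and dorsal counts were 3 and 0 at a 3-fold threshold and 14 and 6 at a 1.5-fold threshold. Shares over all genes at these thresholds were not counted, so these counts describe the replication genes alone. For genes whose mean reached the 99th percentile of receptor genes the counts were 6 and 0, where the shares over all such genes were 21.8% and 10.9%. With the 95th percentile they were 11 and 1, where the shares were 17.8% and 8.02%. The median difference was -0.0056 after centring, so its sign is not settled, 0.17 after the loess, 0.30 as a mean, and 0.27 and 0.79 for genes whose mean reached the 95th and 99th percentile. With the mark at the 99th percentile, 16 genes were above it in ventral and 13 in dorsal tissue. The share of all genes above that mark on each array was not counted. None of the 14 genes past 2-fold changed sign under these 3 scalings. They were picked for a difference of at least 1 in size, so this count carries no support. A difference between 2 values under the mark was not detectable at this signal. No paired analysis was possible because there is 1 array per tissue.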

Other observations

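The promoters of the replication genes also differed from those of the whole table in general letters. The GC box, GGGCGG on either strand, was present within the 300 bases for 33 of 43 genes, 76.7% against 38.2% of 27025 genes. The TATA box letters TATAAA were present for 3 of 43, 6.98% against 15.7%. By position in the genome the 51 genes lay on 14 chromosomes, with 10 of them on chromosome 5. The share of all measured genes on that chromosome was not counted.

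Genes of handling and stress, which can respond to dissection, were mostly near background. Of 12, 2 were above the mark in ventral and 2 in dorsal tissue, against 23.8% and 24.2% of all genes. On both arrays 9 were at background, where a difference is not detectable. None was 2-fold apart, against 5.36% ventral and 2.79% dorsal over all genes. An effect of handling was not tested. Of the 11 replication genes higher in ventral tissue, Orc3, Rfc4 and Lig1 overlap another protein-coding gene in the reference table, as does Tk1 of the 3 higher in dorsal tissue.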
